A study of Danio rerio with 8 samples.

Results

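The genes described here are those named for the core of the spliceosome: the proteins of the small nuclear ribonucleoproteins (snRNPs), the Sm and LSm rings that these particles carry, the SF3A and SF3B complexes, and the pre-mRNA processing factors of the Prp family. They were chosen by symbol, as the genes of the deposited count table whose name begins with prpf, sf3a, sf3b, snrnp or lsm and a number, or with snrp and a letter from a to g. This rule found 56 of the 31953 genes in the table. It used no measured value, but it was chosen with earlier results of these data known. Gene prp19, which the name table calls PRPF19, lies outside the rule because its symbol in the splicing tables differs.

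The spliceosome removes introns from pre-mRNA. In its major form, U1 and U2 snRNPs recognise the ends of the intron, a tri-snRNP of U4, U6 and U5 joins them, and rearrangements driven by RNA helicases open the catalytic centre. Each snRNP of U1, U2, U4 and U5 carries a ring of Sm proteins, U6 carries a ring of LSm proteins, and a minor spliceosome built on U11 and U12 removes a rare class of introns. The gene upf1 encodes the central helicase of nonsense-mediated decay, the pathway that degrades mRNAs with a premature stop codon.

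All samples were whole larvae of the zebrafish strain TLEK, aged 5 days after fertilization, and polyA RNA was sequenced. The mutant group (4 libraries) was homozygous for a nonsense mutation of upf1, and the wild type group (4 libraries) had the same strain and age. The series' design text places the work in the study of lymphocytes and upf1. The labels do not say how many larvae made up a library or whether replicates came from separate clutches, so p-values reflect only how these libraries vary, which may be technical. Levels are CPM, read counts relative to library size after TMM scaling, listed in the order of replicates 1 to 4 or given as mean ± SD (n = 4 libraries per genotype). Protein roles are those known from human and yeast. CPM is not divided by gene length, so levels are compared between libraries and not between genes. Since whole larvae were used, fewer cells of a type and less RNA per cell cannot be told apart.

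Gene counts summed to between 75335048 and 96104507 per library. The mutated gene, upf1 itself, stood at 285 ± 7.51 CPM in mutants against 129 ± 4.35 in wild types, a level that does not check the genotype labels because a nonsense mutation need not lower an mRNA. Its log2 fold change was 1.15 (SE 0.069, adjusted p = 1.06e-05 in edgeR's quasi-likelihood test with Benjamini-Hochberg adjustment). The TMM scaling factors ran from 1.02 to 1.11 in mutants and from 0.893 to 0.977 in wild types. Among marker genes of other tissues, 2 of 6 neuronal, 2 of 7 skeletal muscle and 3 of 8 hepatocyte genes were lower in mutants, and the 4 lens genes did not pass. Over all genes tested, 5.11% were lower at the same adjusted p of 0.05. Summed marker levels in mutants and wild types ran from 761 to 907 and 876 to 962 CPM for neurons and from 32785 to 42977 and 50375 to 64754 CPM for muscle. The sums ran from 3684 to 6741 and 6394 to 9095 CPM for hepatocytes, and from 1503 to 2959 and 1742 to 2809 CPM for lens. No matched marker was at 0 in every library, and the part of these tissues in the results was not tested.

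Part of the core spliceosome was expressed at a higher level in upf1 mutants, and no member was called lower. All 56 genes were counted in every library and all 56 could be tested. At an adjusted p of 0.05 over the 23680 genes tested, 13 of 56 (23.2%) were higher in mutants, 0 were lower and 43 did not pass. Over all genes tested, 9.10% were higher and 5.11% lower. At an unadjusted p under 0.05, 25 members were higher and 0 lower, against 16.2% and 13.2% of all genes tested. The DESeq2 Wald test called 16 members higher and 0 lower, against 11.5% and 8.89% of all genes. With limma voom, 13 members were higher and 0 lower, against 9.14% and 5.36% of all genes.

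The median log2 fold change of the members was 0.25, against -0.01 for all genes tested. The change was positive for 49 of 56 members (87.5%), against 49.2% of all genes tested. Every mutant library lay above every wild type library for 15 members, and every mutant library lay below for 0. Over all genes tested, 12.4% had every mutant above every wild type and 8.71% every mutant below. When counts were scaled by library totals alone, the median of all genes moved from -0.01 to 0.15 and 33 members were called higher, while 4263 genes were higher and 607 lower in place of 2156 and 1211. The member median relative to all genes was little altered, at 0.41 against 0.15. Without wild type replicate 2 the fit called 20 members higher, with 2255 of all genes. Without wild type replicate 3 or 4 it called 8 members, with 1419 and 1459 of all genes.

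**Figure D1:**
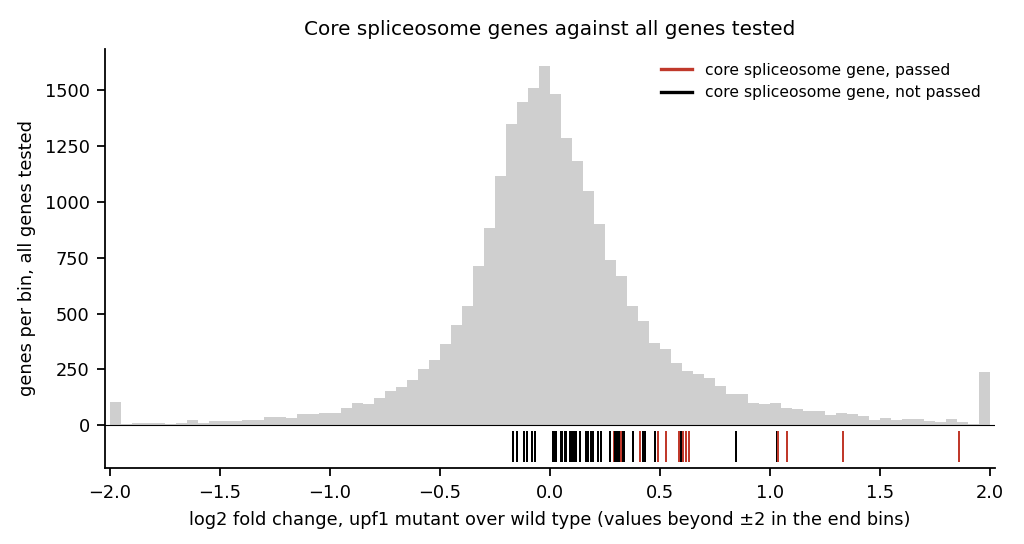
The grey bars count genes by log2 fold change between upf1 mutants and wild types over all 23680 genes tested, and the ticks below mark the 56 core spliceosome genes, red for the 13 that passed at an adjusted p of 0.05. The ticks lie mostly to the right of 0, with a median of 0.25 and none of the passing genes on the left.

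**Figure D2:**
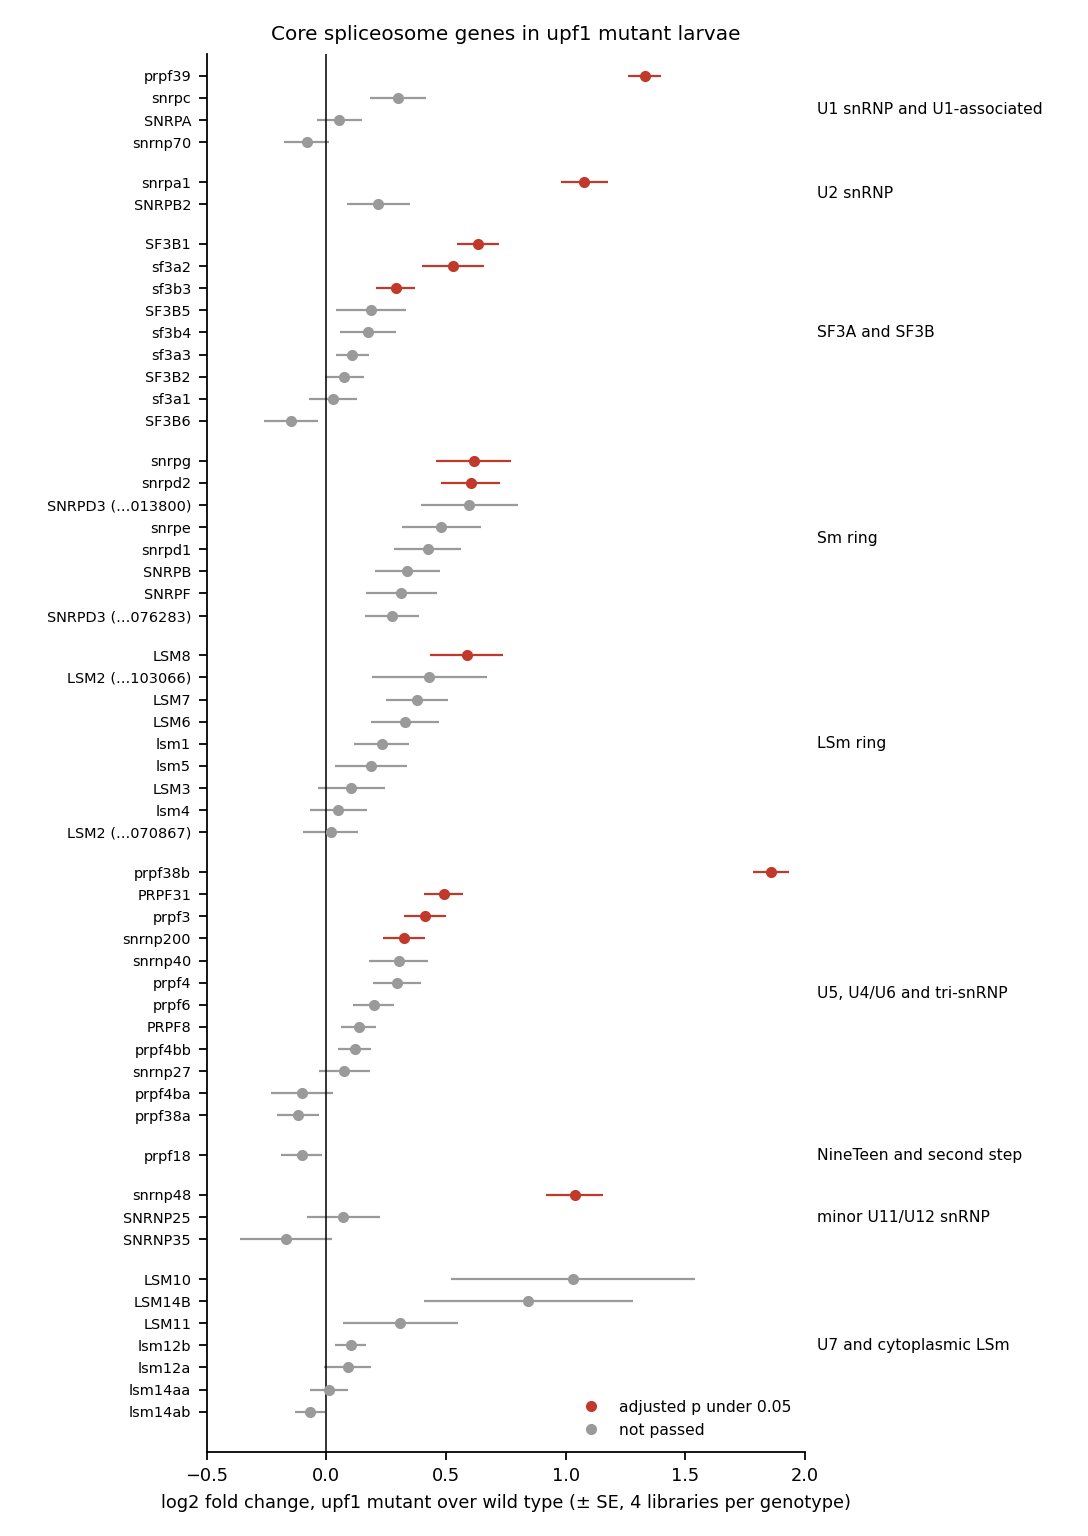
Points give the log2 fold change of each member shown and bars its SE from 4 libraries per genotype, grouped by particle, with red for genes that passed at an adjusted p of 0.05. The largest change, 1.86, belonged to prpf38b, and each of the 8 Sm ring genes lay to the right of 0.

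Among the 5 genes of U1 snRNP and its partners, 1 rose (20%, against 9.10% of all genes tested). The median log2 fold change of the group was 0.16. U1 pairs with the 5' splice site, the first step in choosing an intron. The riser was prpf39 (ENSDARG00000100209), which encodes a U1-associated factor. It stood at 310.0, 294, 301 and 314 CPM in the mutant libraries and 121, 123, 116 and 125 CPM in the wild type libraries. Both groups were tight and far apart, with each mutant library more than 2-fold above each wild type library. The means were 305 ± 9.03 CPM in mutants against 121 ± 3.84 in wild types, a 2.51-fold difference (log2 fold change 1.33, SE 0.069, adjusted p = 5.06e-06).

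The other 4 U1 genes did not pass. Transcript levels of snrnp70, whose protein binds a stem-loop of U1 RNA, were 119 ± 11.4 CPM in mutants against 126 ± 9.95 in wild types (log2 fold change -0.08, 95% interval -0.26 to 0.10). This and the other 95% intervals given are normal approximations from the SE, so they are narrower than the quasi-likelihood test would give. SNRPA, for another RNA-binding U1 protein, had a log2 fold change of 0.05 (adjusted p = 0.748). For snrpc, which encodes a protein that steadies U1 on the 5' splice site, it was 0.30 (adjusted p = 0.127).

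U2 snRNP recognises the branch point. Of its 2 own proteins on the list, 1 rose (50%, against 9.10% of all genes tested). The riser was snrpa1 (ENSDARG00000024651), which encodes a U2 protein bound to the snRNA. Its level was 42.9, 49.98, 46.3 and 49.4 CPM in the mutant libraries and 23.3, 25.6, 20.7 and 19.8 CPM in the wild type libraries. The lowest mutant was well above the highest wild type. The means were 47.1 ± 3.26 CPM in mutants against 22.4 ± 2.63 in wild types (log2 fold change 1.08, SE 0.098, adjusted p = 0.000142). Its partner in the U2 particle, SNRPB2, did not pass, with overlapping groups (log2 fold change 0.22, SE 0.13, adjusted p = 0.314).

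SF3A and SF3B are the protein complexes that clamp U2 onto the branch point. Of their 9 genes, 3 rose (33.3%, against 9.10% of all genes tested), with a median log2 fold change of 0.17. SF3B1 (ENSDARG00000056138), the large scaffold that holds the branch helix, lay at 678, 629, 614 and 619 CPM in the mutant libraries and 386, 379, 436 and 436 CPM in the wild type libraries. The genotypes did not overlap, and the mean was 1.55-fold higher in mutants (log2 fold change 0.63, SE 0.087, adjusted p = 0.0016). The sf3a2 transcript, for an SF3A subunit, was found at 46.96, 49.6, 47.7 and 58.5 CPM in the mutant libraries and 37.5, 41.8, 27.9 and 33.4 CPM in the wild type libraries. Mutants again lay above wild types, by a smaller margin (log2 fold change 0.53, SE 0.13, adjusted p = 0.025). Omitting mutant replicate 4, wild type replicate 3 or wild type replicate 4 ended that call, with adjusted p values of 0.0618, 0.0514 and 0.0711.

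The third was sf3b3, a scaffold subunit of SF3B, at 129 ± 4.24 CPM in mutants against 105 ± 9.61 in wild types (log2 fold change 0.29, SE 0.081, adjusted p = 0.0441). It was the member nearest the threshold and passed in only 1 of the 8 fits that each left out a library, the one without wild type replicate 1. The adjusted p was 0.0804, 0.0822, 0.0797 and 0.101 without mutant replicates 1 to 4 and 0.062, 0.121 and 0.122 without wild type replicates 2 to 4. With all libraries, sf3b3 also did not pass under DESeq2 size factors (adjusted p = 0.0526) or with no expression filter (adjusted p = 0.0552). Nor did it pass with replicate number as a block (adjusted p = 0.122). The other 6 genes, sf3a1, sf3a3, SF3B2, sf3b4, SF3B5 and SF3B6, had log2 fold changes from -0.15 for SF3B6 to 0.19 for SF3B5, with overlapping groups.

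**Figure D3:**
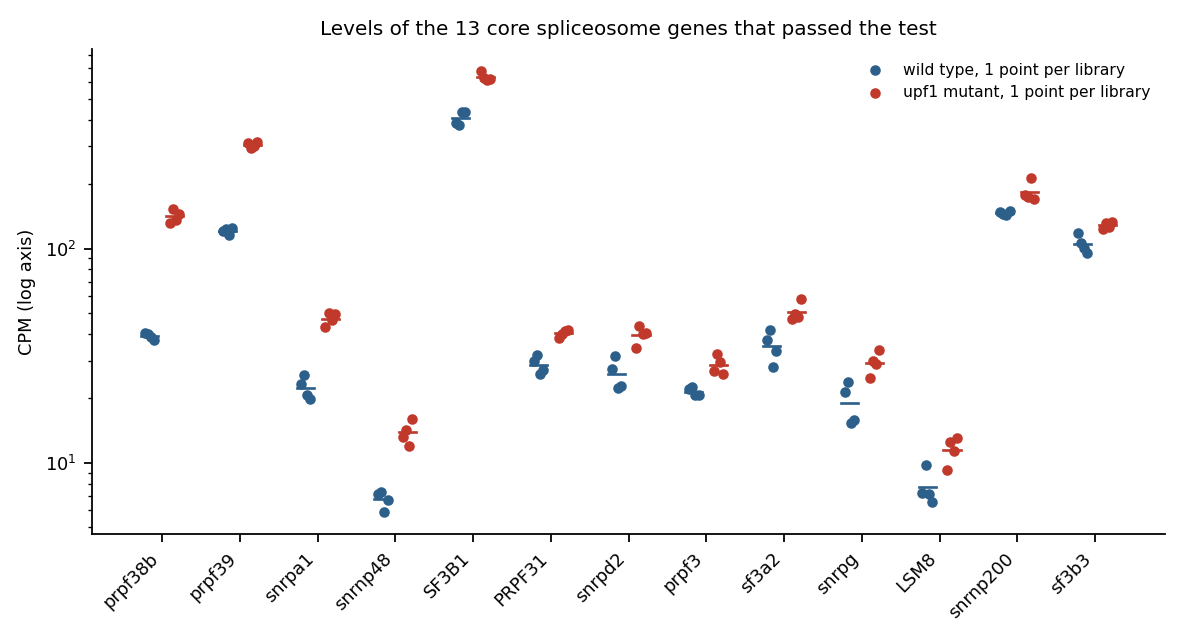
Each point is the CPM of 1 library on a log axis, blue for wild type and red for upf1 mutant, with a line at the mean of 4, for the 13 members that passed, in order of adjusted p. The groups are apart for 12 of these genes and overlap for LSM8.

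Small positive differences, most of them short of the threshold, ran through the whole Sm ring. Its proteins form a ring of 7 around the snRNA, and the table holds 8 genes for them because SNRPD3 is listed under 2 identifiers. All 8 log2 fold changes were positive, from 0.27 to 0.62 with a median of 0.45, where 49.2% of all genes tested were positive. Of the 8, 2 passed (25%, against 9.10% of all genes tested). The snrpd2 gene (ENSDARG00000040440), for SmD2, was read at 34.5, 43.4, 39.96 and 40.4 CPM in the mutant libraries and 27.3, 31.5, 22.4 and 22.9 CPM in the wild type libraries. The highest wild type, replicate 2, was just under the lowest mutant (log2 fold change 0.60, SE 0.12, adjusted p = 0.0123). The snrpg gene (ENSDARG00000099667), for SmG, gave 24.8, 29.8, 28.9 and 33.5 CPM in the mutant libraries and 21.4, 23.8, 15.4 and 15.8 CPM in the wild type libraries. Here too wild type replicate 2 came closest to the mutants (log2 fold change 0.62, SE 0.16, adjusted p = 0.03). Omitting mutant replicate 2, 3 or 4 or wild type replicate 3 or 4 ended the snrpg call (in that order, adjusted p = 0.0605, 0.0615, 0.0764, 0.0776 and 0.0805).

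The Sm gene with the highest CPM, SNRPB, for SmB, did not pass. It read 104, 122, 107 and 131 CPM in the mutant libraries and 88.98, 116, 76.5 and 85.3 CPM in the wild type libraries. Wild type replicate 2 lay among the mutants and the other wild types lay below them (log2 fold change 0.34, SE 0.14, adjusted p = 0.133). The rest were snrpd1 (SmD1) at 0.42, snrpe (SmE) at 0.48, SNRPF (SmF) at 0.31, and the 2 SNRPD3 (SmD3) genes at 0.60 for ENSDARG00000013800 and 0.27 for ENSDARG00000076283, all on the log2 scale and with adjusted p from 0.0784 to 0.191.

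Wild type replicate 2 stood apart for the ring. The mean log2 CPM of the 8 Sm genes, each centred on its mean over the 8 libraries, was 0.06, 0.34, 0.14 and 0.39 in mutant replicates 1 to 4 and -0.17, 0.12, -0.48 and -0.40 in wild type replicates 1 to 4. Only wild type replicate 2 came within the mutant range. The same library was high for 9 matched markers of proliferating cells, with a centred mean of 0.22 against -0.22, -0.37 and -0.30 in the other wild types. The mutants gave 0.03, 0.14, 0.32 and 0.20 for these markers. Of the 9, 1 was called higher, mki67 (11.1%, near the 9.10% of all genes tested). All 9 had positive log2 fold changes, with a median of 0.35, where 49.2% of all genes tested were positive. The summed marker level ran from 634 to 761 CPM in mutants and from 480 to 688 CPM in wild types, and its part in the Sm levels was not tested. Wild type replicate 2 was also the highest wild type for the skeletal muscle and hepatocyte markers, with centred means of 0.37 and 0.40. For the neuron and lens markers it was not the highest, at 0.03 and -0.28. This library also had the lowest TMM scaling factor, 0.893, against 0.959, 0.977 and 0.960 in wild type replicates 1, 3 and 4. The part of that factor in its levels was not tested.

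Leaving out wild type replicate 2 brought 9 more members past the threshold, the 6 other Sm genes with LSM6, LSM7 and prpf4, while sf3b3 and snrnp200 were lost. The log2 fold changes in that fit were 0.47 for SNRPB (adjusted p = 0.0226) and 0.55 for snrpd1 (adjusted p = 0.0214). That library was the highest wild type for the Sm ring, so leaving it out raises these changes by itself. The added calls are therefore no separate support for a rise. Over all genes, the fit called 2255 higher, against 2156 with all libraries.

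**Figure D4:**
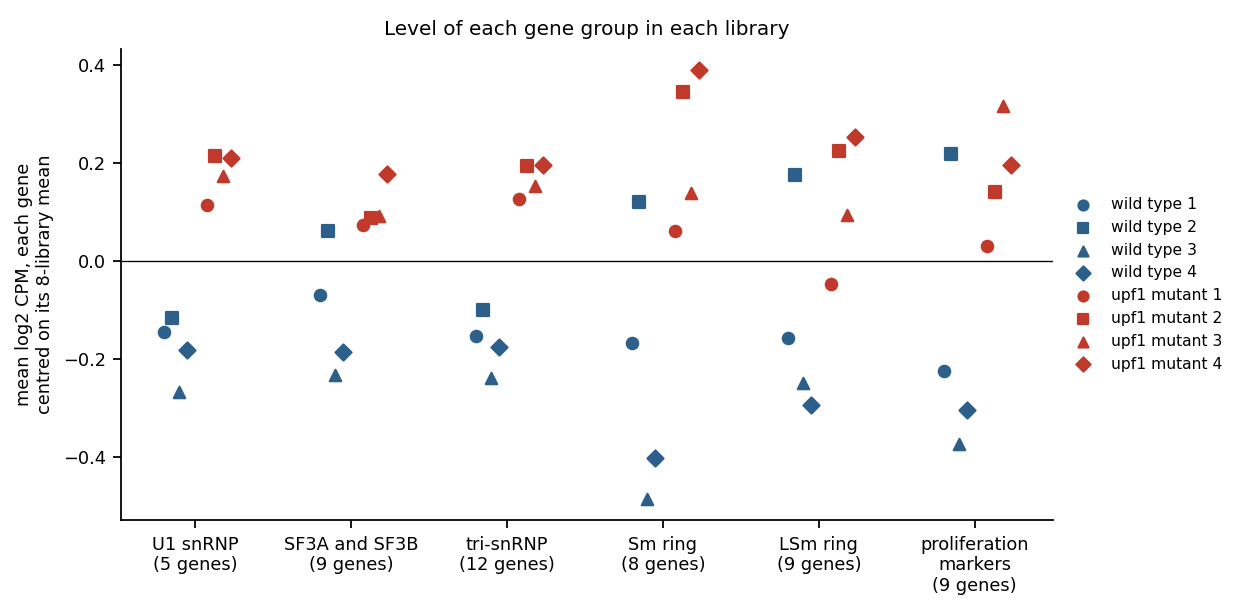
Each point is 1 library's mean log2 CPM over the genes of a group, each gene centred on its mean over 8 libraries, in blue for wild types and red for upf1 mutants, with a marker shape per replicate number. Wild type replicate 2, the blue square, is the highest wild type in all 6 groups and lies within the mutant range for the Sm ring, the LSm ring and the proliferation markers.

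The LSm ring binds the end of U6 RNA in the nucleus when it holds LSM8, and takes part in mRNA decay in the cytoplasm when it holds LSM1. Of 9 genes, all with positive log2 fold changes, 1 rose (11.1%, near the 9.10% of all genes tested). The median was 0.23. LSM8 (ENSDARG00000091656) stood at 9.30, 12.5, 11.3 and 13.03 CPM in the mutant libraries and 7.26, 9.73, 7.17 and 6.56 CPM in the wild type libraries. The lowest mutant, replicate 1, was under the highest wild type, replicate 2, so the groups overlapped (log2 fold change 0.59, SE 0.15, adjusted p = 0.0329). Omitting mutant replicate 2, 3 or 4 ended the call (adjusted p = 0.0698, 0.0654 and 0.0811), as did omitting wild type replicate 1, 3 or 4 (adjusted p = 0.0802, 0.0911 and 0.0909). The cytoplasmic subunit lsm1 had a log2 fold change of 0.23 (SE 0.12, adjusted p = 0.218).

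LSM7, the ring gene with the highest CPM averaged over the 8 libraries, was measured at 24.4, 31.4, 28.7 and 31.4 CPM in the mutant libraries and 21.8, 27.7, 19.7 and 19.9 CPM in the wild type libraries. Wild type replicate 2 fell among the mutants, and the change of 0.38 did not pass (SE 0.13, adjusted p = 0.0866). The other 6 ring genes lay between 0.02 and 0.43 on the log2 scale, the ends of the range being the 2 genes listed as LSM2. The gene at the upper end, ENSDARG00000103066, was below 1 CPM in every library. Reads shared between the 2 LSM2 genes, or between the 2 SNRPD3 genes, may have been split in counting, so their separate levels are uncertain.

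The tri-snRNP and its B complex partners held 4 of the 13 members that rose, among 12 genes (33.3%, against 9.10% of all genes tested). The median log2 fold change of these 12 genes was 0.25. The largest change of any member was that of prpf38b (ENSDARG00000053101), a relative of the B complex protein PRPF38A. It was read at 132, 154, 136 and 145 CPM in the mutant libraries and 40.2, 39.8, 38.6 and 37.5 CPM in the wild type libraries. Each mutant was more than 3-fold above each wild type. The mean was 3.63-fold higher, at 142 ± 9.76 CPM in mutants against 39.04 ± 1.22 in wild types (log2 fold change 1.86, SE 0.075, adjusted p = 1.27e-06).

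The related prpf38a did not pass. At 16.03 ± 0.632 CPM in mutants against 17.4 ± 1.69 in wild types, its groups overlapped (log2 fold change -0.12, adjusted p = 0.407). The difference between the pair in log2 CPM, prpf38b minus prpf38a, was 3.14 ± 0.06 in mutants and 1.17 ± 0.12 in wild types (SD, n = 4). These differed by 1.97 (exact two-sided permutation test over libraries, p = 0.0286, and 0.0857 after adjustment over the 6 related pairs compared). That p is the smallest that 4 against 4 allows, so the adjusted value cannot show the size of the difference. The separation already follows from the levels of prpf38b, so this test is no separate support for its rise. Of the other 5 pairs, the 2 LSM2 genes differed by 0.40 (p = 0.0286, adjusted 0.0857, exact permutation test), and lsm12a and lsm12b, lsm14aa and lsm14ab, prpf4ba and prpf4bb, and the 2 SNRPD3 genes gave differences from -0.08 to 0.34 with exact permutation p from 0.143 to 0.943. The LSM2 difference rests on a gene below 1 CPM in every library, ENSDARG00000103066.

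Of the genes for U4/U6 proteins, the transcripts of PRPF31 and prpf3 also rose. PRPF31 (ENSDARG00000095904), which binds the U4 stem-loop, was present at 38.5, 40.1, 41.2 and 41.7 CPM in the mutant libraries and 29.9, 31.9, 25.98 and 27.2 CPM in the wild type libraries. The genotypes were separate and the wild types more spread (log2 fold change 0.49, SE 0.081, adjusted p = 0.00436). The prpf3 gene (ENSDARG00000086425), whose product contacts U4/U6 RNA beside PRPF4, was present at 26.8, 32.3, 29.4 and 25.9 CPM in the mutant libraries and 22.04, 22.6, 20.6 and 20.8 CPM in the wild type libraries. Mutants lay above wild types by a narrow gap (log2 fold change 0.41, SE 0.087, adjusted p = 0.0147). Its partner prpf4 also had every mutant above every wild type, at 20.1 ± 0.834 CPM in mutants against 16.3 ± 2.14 in wild types, without passing (log2 fold change 0.30, adjusted p = 0.0858).

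Among U5 genes, snrnp200 (ENSDARG00000077536), the Brr2 helicase that unwinds U4 from U6, gave 178, 175, 213 and 170.3 CPM in the mutant libraries and 149, 145, 144 and 150.0 CPM in the wild type libraries. Mutant replicate 3 was the highest, and the other mutants lay nearer to the wild types, with no overlap (log2 fold change 0.32, SE 0.087, adjusted p = 0.0365). Omitting mutant replicate 1 or 3 ended this call (adjusted p = 0.0714 and 0.0693), and so did omitting any 1 wild type (adjusted p = 0.0761, 0.0587, 0.0989 and 0.0809 without replicates 1 to 4). PRPF8, the protein at the centre of the catalytic core and the group's highest in CPM, was measured at 327, 309.7, 328 and 328 CPM in the mutant libraries and 315, 286, 289 and 287 CPM in the wild type libraries. Wild type replicate 1 was above mutant replicate 2, and the change was 0.14 (95% interval -0.01 to 0.28, adjusted p = 0.252).

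The remaining tri-snRNP genes did not pass. They were snrnp40 (a U5 protein, 0.30), prpf6 (a bridge between U5 and U4/U6, 0.20), snrnp27 (0.07) and the paired kinase genes prpf4ba (-0.10) and prpf4bb (0.12), as log2 fold changes with adjusted p from 0.143 to 0.692.

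The second-step factor prpf18, which helps position the 3' splice site, had the opposite sign without passing. It read 15.04, 18.2, 15.4 and 17.4 CPM in the mutant libraries and 18.5, 17.1, 17.6 and 17.8 CPM in the wild type libraries. Mutants and wild types overlapped (log2 fold change -0.10, 95% interval -0.27 to 0.07, adjusted p = 0.472), and scaling by library totals alone turned the sign to 0.05.

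In the minor spliceosome, 1 of 3 snRNP genes rose (33.3%, against 9.10% of all genes tested). The snrnp48 gene (ENSDARG00000039989) encodes a U11 protein that contacts the 5' splice site of minor introns, and its level was 13.2, 14.2, 11.9 and 16.1 CPM in the mutant libraries and 7.18, 7.28, 5.88 and 6.71 CPM in the wild type libraries. The lowest mutant was well above the highest wild type. The means were 13.9 ± 1.75 CPM in mutants against 6.76 ± 0.637 in wild types (log2 fold change 1.04, SE 0.12, adjusted p = 0.000573). SNRNP25 and SNRNP35, other U11/U12 proteins, had log2 fold changes of 0.07 and -0.17 with overlapping groups (adjusted p = 0.807 and 0.607).

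The 7 remaining LSm genes include some that serve the U7 particle of histone pre-mRNA processing or cytoplasmic mRNA granules. The median log2 fold change of the 7 was 0.10. There were 0 calls by edgeR's quasi-likelihood test, by DESeq2 or by limma voom, and 0 at an unadjusted p under 0.05. Of all genes tested, these methods in that order called 9.10%, 11.5% and 9.14% higher and 5.11%, 8.89% and 5.36% lower. At an unadjusted p under 0.05, 16.2% of all genes tested were higher and 13.2% lower. A count of 0 cannot show a difference between all genes tested and these 7 LSm genes, because they are few. The one with the highest CPM, lsm14ab, a gene of the LSM14A family of cytoplasmic granule proteins, was measured at 98.2, 93.6, 93.2 and 99.8 CPM in the mutant libraries and 99.1, 101, 99.5 and 104 CPM in the wild type libraries. The groups overlapped and the change was -0.07 (95% interval -0.19 to 0.05, adjusted p = 0.506), with the sign turned to 0.09 when scaled by library totals alone. LSM10, a U7 ring protein, and LSM14B were below 1 CPM in every library, and their log2 fold changes of 1.03 (SE 0.51) and 0.84 (SE 0.44) did not pass. LSM11, the other U7 ring protein, had a change of 0.31 (SE 0.24). Of the others, lsm12b had every mutant above every wild type, at 49.5 ± 0.760 CPM in mutants against 46.1 ± 2.22 in wild types (log2 fold change 0.10, adjusted p = 0.329), and lsm12a and lsm14aa had overlapping groups and changes of 0.09 and 0.01.

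The 8 members prpf38b, prpf39, snrpa1, snrnp48, SF3B1, PRPF31, snrpd2 and prpf3 passed in all 16 alternative fits that were run. These fits reuse the same 8 libraries and are not independent, and the same count over all genes was not made. In each fit that left out a library, from 8 to 20 members were called higher and 0 lower. Over all genes tested, these fits called from 1419 to 2255 higher and from 671 to 1266 lower.

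The splicing of the members' own transcripts was read from the authors' deposited tables of splicing events, which compare a first and a second group of 4 libraries with no genotype named, and since no label or header says which group is which genotype, none was assigned here and no direction by genotype is given. The tables held 90 events in 34 of the 56 genes, and 10 of these in 4 genes had a deposited FDR under 0.05. They were 3 of 70 cassette exons, 3 of 6 retained introns, 1 of 2 alternative 5' splice sites, 1 of 3 alternative 3' splice sites and 2 of 9 pairs of mutually exclusive exons. Over all events of these classes, the shares were 8.79%, 14.3%, 12.7%, 10.2% and 7.35%. Of the 70 cassette exons, 63 had a mean inclusion level of at least 0.95 in both groups. The 80 events that did not pass differed by at most 0.064 in inclusion level.

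Of the 10 events that passed, 7 lay in prpf39 and 1 each in snrpa1 and prpf38b. These 3 genes are the members with the smallest adjusted p in the gene counts. Inclusion levels run from 0 to 1 and are the authors' deposited values per library, with between 154 and 1794 junction reads behind each. Coordinates are on GRCz10, the build that the submitters' processing notes name.

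In snrpa1, an exon of 80 nt at chr7:9054385-9054464, on the plus strand, was included at 0.382, 0.453, 0.461 and 0.444 in the libraries of the first group and 0.948, 0.942, 0.900 and 0.882 in those of the second. The libraries of the groups were far apart, high in the second and under 0.5 in the first. The difference of first minus second group in the authors' deposited table was -0.483, with an FDR listed as 0. The exon's length leaves a remainder of 2 when divided by 3, so its skipping changes the reading frame if it lies within coding sequence, which was not analysed here.

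In prpf39, 5 of the 7 events concern 1 stretch of 367 nt on the plus strand of chromosome 20, made of an intron of 116 nt, an exon of 118 nt and an intron of 133 nt. The intron of 133 nt, at chr20:54491463-54491595, had retention levels in the authors' deposited table of 0.271, 0.267, 0.256 and 0.238 in the libraries of the first group and 0.741, 0.727, 0.718 and 0.775 in those of the second. Retention of the intron of 116 nt, at chr20:54491229-54491344, was 0.257, 0.313, 0.319 and 0.325 in the libraries of the first group and 0.737, 0.698, 0.748 and 0.760 in those of the second. In the reads counted for each event, both introns were mostly spliced in the first group and mostly kept in the second. The differences were -0.482 and -0.432, with FDRs listed as 0. These levels are shares of each event's own reads and not of all prpf39 transcripts.

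The exon of 118 nt between these introns, at chr20:54491345-54491462, was included at 0.430, 0.374, 0.403 and 0.395 in the libraries of the first group and 0.098, 0.102, 0.124 and 0.106 in those of the second in the authors' deposited table. Its inclusion was higher in every library of the first group, the opposite side from the retained introns (difference 0.293, FDR listed as 0). This exon was named after its values were seen, and its length leaves a remainder of 1 when divided by 3. Retention of the whole stretch of 367 nt had means of 0.168 in the first group and 0.275 in the second (difference -0.107, FDR 1.03e-10). Use of a 3' splice site that extends the next exon by 251 nt differed by 0.071 (FDR 0.000368). Both are from the authors' deposited table. These 5 events share junction reads and are not independent.

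The remaining prpf39 events lay outside the stretch of 367 nt. An exon of 108 nt at chr20:54495481-54495588, also named after its values were seen, was included at 0.398, 0.329, 0.409 and 0.390 in the libraries of the first group and 0.141, 0.153, 0.136 and 0.188 in those of the second in the authors' deposited table (difference 0.227, FDR listed as 0). Its length is a multiple of 3. A pair treated as mutually exclusive joined a different exon of 108 nt, at chr20:54491596-54491703, with an exon of 165 nt, at chr20:54495168-54495332. Use of the first differed by -0.116 (FDR 3.61e-06, authors' deposited table). Listed as cassette exons, both had a mean inclusion of at least 0.998 in each group, so most transcripts counted there held both.

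In prpf38b, on the minus strand of chromosome 2, alternative 5' splice sites differed by 14 nt, at chr2:45807005-45807018. Use of the site that gives the longer exon was 0.509, 0.569, 0.554 and 0.545 in the libraries of the first group and 0.281, 0.228, 0.272 and 0.264 in those of the second. Every library of the first group was above every library of the second (difference 0.283, FDR listed as 0 in the authors' deposited table). The 14 nt leave a remainder of 2 when divided by 3.

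**Figure D5:**
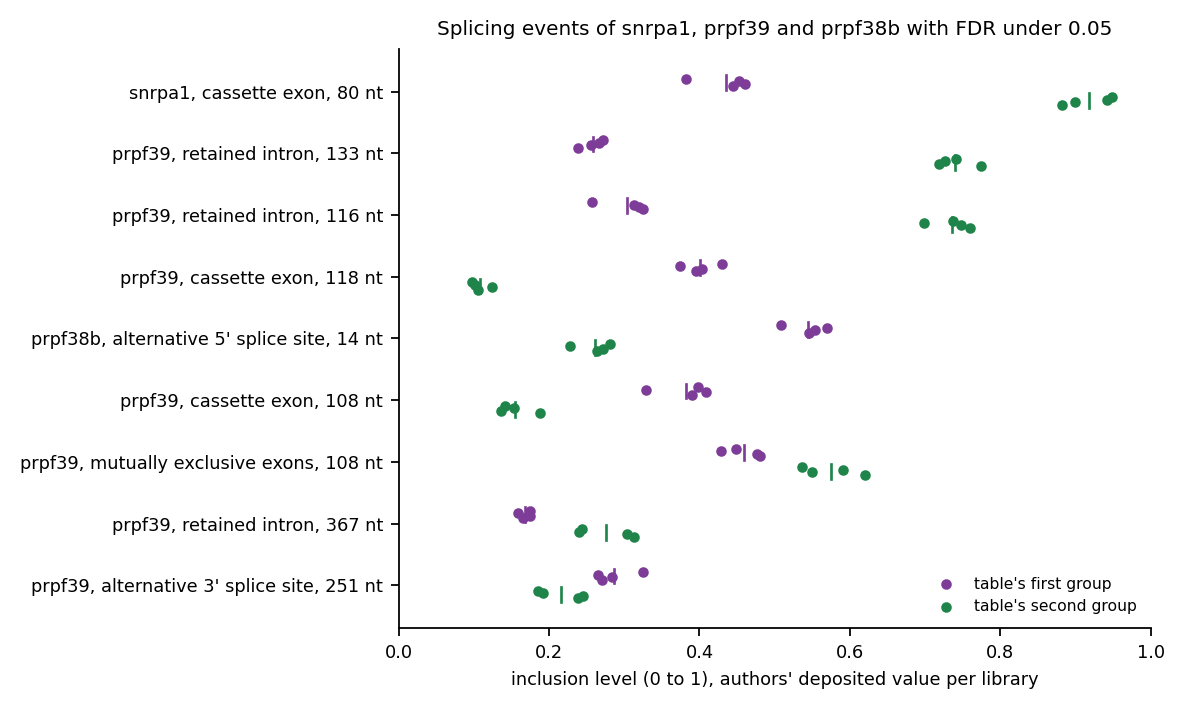
Points are the authors' deposited inclusion levels per library, from 0 to 1, for events in snrpa1, prpf39 and prpf38b with an FDR under 0.05, purple for the table's first group and green for its second, with a line at each mean. The groups do not overlap in any event shown, and the largest difference between means, -0.483, is that of the snrpa1 exon of 80 nt.

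Other genes of the splicing machinery, 66 in number, had 15 genes higher in mutants (22.7%) and 1 lower, with a median log2 fold change of 0.19. Over all genes tested, 9.10% were higher and 5.11% lower, with a median of -0.01. Among 29 other proteins of the snRNPs and the B complex, 8 rose (27.6%) and 1 fell. The risers with the smallest adjusted p were puf60a, a partner of U2AF at the 3' splice site (log2 fold change 1.12, SE 0.071, adjusted p = 1.45e-05), ddx42, a helicase that associates with SF3B (log2 fold change 0.74, SE 0.060, adjusted p = 7.04e-05), luc7l, a U1-associated protein (log2 fold change 0.65, SE 0.076, adjusted p = 0.000679), and u2surp, a U2-associated protein (log2 fold change 0.59, SE 0.080, adjusted p = 0.0015). The gene that fell was smu1b (log2 fold change -0.49, SE 0.14, adjusted p = 0.0448), of a family of B complex proteins, and this call held in only 1 of the 8 fits that each left out a library, the one without mutant replicate 2 (adjusted p = 0.018).

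Of 29 genes of the Prp19 complex and of the activation and catalytic steps, 5 rose (17.2%, against 9.10% of all genes tested). The helicase gene dhx15, whose product takes spent spliceosomes apart, had the largest change of these (log2 fold change 0.87, SE 0.082, adjusted p = 0.000185). It was followed by aqr (log2 fold change 0.43, SE 0.092, adjusted p = 0.0157), whose call ended when wild type replicate 3 was left out (adjusted p = 0.0505), and by crnkl1 (log2 fold change 0.30, SE 0.068, adjusted p = 0.0193) and XAB2 (log2 fold change 0.34, SE 0.079, adjusted p = 0.0226), each no longer called when mutant replicate 3 or 4 or wild type replicate 3 or 4 was left out. The adjusted p without those libraries, in that order, was 0.0528, 0.0509, 0.0633 and 0.0512 for crnkl1 and 0.0569, 0.056, 0.0651 and 0.0577 for XAB2.

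Of 8 further proteins of the minor spliceosome, 2 rose (25%, against 9.10% of all genes tested). They were cenatac at 35.1 ± 3.22 CPM in mutants against 11.04 ± 0.685 in wild types (log2 fold change 1.67, SE 0.091, adjusted p = 6.28e-06) and zrsr2, which recognises the 3' splice site of minor introns, at 17.9 ± 0.816 CPM in mutants against 6.33 ± 0.297 in wild types (log2 fold change 1.497, SE 0.081, adjusted p = 6.25e-06).

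Among 27 genes that assemble and process snRNPs, 9 rose (33.3%) and 1 fell, with a median log2 fold change of 0.17. Over all genes tested, 9.10% were higher and 5.11% lower. The largest was usb1, the exonuclease that trims the end of U6 RNA, at 15.8, 17.4, 15.3 and 14.5 CPM in mutants and 3.78, 3.65, 3.88 and 3.19 CPM in wild types. Each mutant was more than 3-fold above each wild type (log2 fold change 2.12, SE 0.10, adjusted p = 3.71e-06). The snapc4 gene, for a subunit of the complex that starts snRNA transcription (log2 fold change 0.97, SE 0.11, adjusted p = 0.000502), strap (log2 fold change 0.66, SE 0.079, adjusted p = 0.000767) and gemin5 (log2 fold change 0.70, SE 0.15, adjusted p = 0.0157), both of the SMN pathway that loads Sm rings on snRNAs, also rose. The gene that fell, ell2, an elongation factor of RNA polymerase II (log2 fold change -0.28, SE 0.073, adjusted p = 0.0341), was called in 1 of the 8 fits that each left out a library, the one without mutant replicate 1 (adjusted p = 0.0433).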

How the data were processed

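Per the labels, total RNA was extracted with TRI Reagent and DNase I, and stranded TruSeq libraries were made after polyA selection. The authors deposited a table of raw read counts per gene. Per the submitters' processing notes, the build was GRCz10 and the tools included featureCounts, STAR 2.5.2b, TopHat2 2.0.13 and sleuth 0.28.1, with no step given for any. Whether counting used strand is not stated there, so a gene's reads may include those of an overlapping or antisense gene. Per the file headers, the authors' splicing tables hold junction read counts, inclusion levels as a fraction from 0 to 1, p-values and FDR for 5 event classes. They name their groups only by number, and no genotype was assigned to these groups from their values, so a planned permutation test of inclusion by genotype was left out. The authors' transcript table from sleuth holds p-values and q-values under transcript identifiers that are not paired with genes, and it was not used.

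The splicing tables gave the symbols of 34 of the 56 members, while 22 were named through an Ensembl name table. Roles and comparison lists were written from textbook knowledge. There were 144 entries, of which 14 matched no gene and 2 matched several. The members and lists were chosen with earlier results of these data known. The quasi-likelihood test of edgeR 4.0.16 (R 4.3.3) was applied to the counts, with TMM scaling, filterByExpr (minimum count 10, minimum total 15) and Benjamini-Hochberg adjustment over all genes tested at 0.05. CPM and log2 CPM (prior count 2) were computed from the deposited counts. Related gene pairs were compared by an exact permutation test with scipy 1.17.1. Splicing events were counted at a deposited FDR of 0.05.

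Named members are the 12 with the smallest adjusted p, any that fell, and the member with the highest CPM of each role, with every other member that passed. Named splicing events are the largest differences with a mean of at least 10 junction reads per group and at most 2 per gene. Alternative scalings were upper-quartile and DESeq2 size factors, alternative filters were none and 1 CPM or more in 4 libraries, and other fits were the DESeq2 1.42.0 Wald test, limma 3.58.1 voom, a replicate block, and leaving out each library. Scaling by library totals alone was added after seeing the data, because the TMM factors of the genotypes did not overlap. All counts include 1 member whose own results are not reported here. No sequences are shown.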

Additional observations from a re-analysis of the deposited data

Results flagged for a closer look

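In 7 of 112 groups of 4 libraries (56 genes in each genotype), 1 library stood far from the other 3, with a gap to its nearest neighbour past Dixon's critical share of the group's range. Chance gives about 1 in 20 groups. For lsm4, wild type replicate 2 stood at 30.43 CPM against 22.05 to 22.85 in the other wild types. For lsm5, mutant replicate 1 stood at 7.764 CPM against 9.979 to 10.16 in the other mutants. Mutant replicate 1 was also low for SNRPB2, at 11.6 CPM against 13.04 to 13.2. For SF3B2, mutant replicate 4 stood at 109.9 CPM against 100.3 to 101.9. PRPF8 had a library apart in each genotype, mutant replicate 2 at 309.7 CPM against 327 to 328.5 and wild type replicate 1 at 315.1 CPM against 285.9 to 288.7. For lsm12b, wild type replicate 3 stood at 42.82 CPM against 46.95 to 47.68. None of these genes was among the 13 that passed the test.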

How the results depend on the processing

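The 13 members higher in mutants were 12 to 16 under upper-quartile scaling, DESeq2 size factors, the CPM filter, no filter, the DESeq2 Wald test and limma voom, and the DESeq2 Wald test and limma voom called all 13 of them. Scaling by library totals alone, chosen after seeing the data, gave 33, and the replicate block gave 8, all 8 among the 13, where all genes called higher went from 2156 to 4263 and 1307. Leaving out each library gave 8 to 20 members, the highest without wild type replicate 2, and 1419 to 2255 of all genes, so the calls of all genes moved too. No alternative called a member lower. For the other spliceosome genes, 15 higher became 37 with library totals and 9 with the replicate block, and ranged from 9 to 19 when each library was left out. The 1 lower became 0 with upper-quartile scaling, library totals or the replicate block, 2 with the DESeq2 Wald test, and 0 to 1 when each library was left out. For snRNP assembly genes, 9 higher became 4 with the replicate block and 5 to 8 when each library was left out, and the 1 lower became 0 with library totals or the replicate block and 0 to 1 when each library was left out. With library totals, the log2 fold change of prpf18 turned from -0.10 to 0.0548 and that of lsm14ab from -0.07 to 0.0868. Library totals raise all genes by the gap in scaling factors between genotypes, and the cause of the other changes was not tested.

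Same-numbered libraries correlated at 0.023, 0.034, -0.067 and -0.051 in their deviations from the group means. None correlated best with its own number, and the labels do not say whether equal replicate numbers mark a pair. Why the replicate block called fewer members was not tested. The 10 splicing events were 10 at an FDR of 0.01, 10 with at least 20 junction reads in every library, and 8 with an inclusion difference of at least 0.1. As plain shares of junction reads, 3 of the 5 named differences moved by more than the libraries' spread, to -0.352 for snrpa1 and to -0.440 and -0.382 for the prpf39 introns. Of the 13 calls, 8 were above 1.5-fold, and the smallest change that passed was a log2 fold change of 0.29 (sf3b3).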
